A study of Vitis vinifera and Vitis vinifera
Schisandra chinensis with 13 samples.

Results

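CYP707A4 is 1 gene of the 25819 in the deposited expression table, where its gene ID is MSTRG.13365 and its single transcript is VIT_03s0063g00380.t01, a locus tag of chromosome 3. It was chosen by name, and for its higher level in Vs hybrids than in Vv plants in these same libraries, so its levels, fold change and ranks are given as a description with no test. The table marks 3 other loci as members of the CYP707A family, by gene name or by the annotated abscisic acid 8'-hydroxylase function, and 2 of these were high enough to be tested. Vs hybrids are Vitis vinifera 'Hongruibao' scions on wild Schisandra chinensis rootstocks, and Vv plants are self-rooted Vitis vinifera of the same cultivar. Both had grown at the same site for 25 years after grafting and received no special treatment. For each of 3 randomly picked plants per group, RNA from leaf, phloem and berry was mixed and sequenced as 1 RNA-seq library. A difference therefore cannot be assigned to an organ, and in such a pool fewer cells of one type and less RNA per cell cannot be told apart. Reads of Vs hybrids were also mapped to the grape genome, so levels refer to grape gene models.

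Abscisic acid (ABA) is the plant hormone of drought response, stomatal closure and seed dormancy, and in grape berries, which are non-climacteric, it rises at the onset of ripening. It is made from carotenoids: zeaxanthin epoxidase and violaxanthin-modifying enzymes provide the precursors, NCED dioxygenases cleave them, and ABA2 and aldehyde oxidases finish the hormone. CYP707A enzymes are cytochrome P450 monooxygenases that hydroxylate ABA at the 8' carbon, the main route by which the hormone is inactivated. Perception runs through PYR/PYL receptors, which inhibit PP2C phosphatases and so release SnRK2 kinases to act on ABF transcription factors.

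Which name a set of values carries was taken from the deposited table. The study's own supplementary list of changed genes gives the values of CYP707A4 under phytoene synthase (PSY), and it pairs most of its values with other IDs than the deposited table does. The annotation as a whole was set beside the levels. Such levels cannot show whether a single gene, CYP707A4 included, carries the right name, so its name rests on the deposited table alone. The median over 60 photosynthesis genes was 32.6, 41.3 and 53.2 FPKM in the Vs libraries, against 29.2, 30.8 and 12.6 FPKM in those of Vv. The median over all genes was 1.51 to 1.92 FPKM. The median over 226 ribosome genes lay between 28.5 and 35.4 FPKM. FPKM are fragments per kilobase of transcript, scaled to the mapped fragments of the library, so levels can be set side by side between genes. The photosynthesis genes summed to 18475 to 27096 FPKM in the Vs libraries, to 15064 and 15800 FPKM in Vv replicates 1 and 2 and to 4964 FPKM in Vv replicate 3, which stands apart. For part of the named values, the value without it is given too. Between 21471 and 22154 genes were above 0 FPKM per library. Read depth per library cannot be read from FPKM and was not used here.

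CYP707A4 was at 18.2, 21.9 and 20.8 FPKM in the Vs libraries, against 5.30, 5.89 and 3.82 FPKM in those of Vv. All 3 Vs libraries were above all 3 Vv libraries, and the lowest Vs value lay far above the highest Vv value. The means were 20.3 ± 1.91 FPKM in Vs hybrids and 5.003 ± 1.07 FPKM in Vv plants (SD, n = 3 each), a ratio of 4.06. On the log2(FPKM + 1) scale the difference was 1.84 (SE 0.22), and it was 1.69 without Vv replicate 3. Such a separation, Vs above Vv with no overlap, was seen in 5.55% of the 15447 tested genes, and Vs below Vv in 26.2%. This count is for the contrast that chose the gene, and nothing is read from it.

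**Figure D1:**
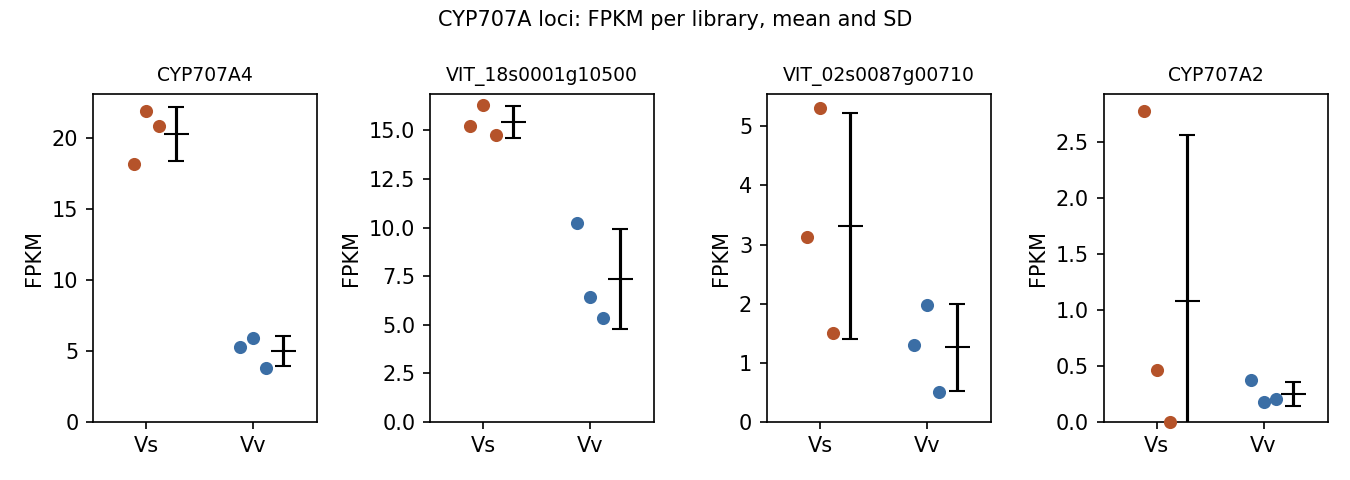
FPKM of the 4 CYP707A loci, with Vs libraries left of Vv libraries in each panel. Points are libraries, and the black bar beside them is the mean with its SD (n = 3); each panel has its own axis from 0, which cuts off the lower SD bar of CYP707A2 in Vs. CYP707A4 lies between 18.2 and 21.9 FPKM in Vs and between 3.82 and 5.89 FPKM in Vv, and CYP707A2 is below 1 FPKM in all libraries except Vs replicate 1.

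The tested genes as a whole were shifted between the groups, since their median log2 fold change was -0.25 and 10432 of 15447 lay below 0. After median-ratio scaling, which sets that median to 0.00, the log2 difference of CYP707A4 was 2.12. The scaled levels were 21.96, 22.5 and 22.5 in the Vs libraries and 4.73, 4.96 and 3.54 in the Vv libraries. Set against the FPKM sum of its library, CYP707A4 took 31.2, 38.9 and 40.0 parts per 1000000 in the Vs libraries and 11.5, 12.8 and 8.68 in the Vv libraries. The groups stayed apart on each of these scales.

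By level, CYP707A4 was the gene of rank 2775, 2695 and 2771 in the Vs libraries and 9027, 8575 and 9618 in the Vv libraries, out of 25819. Between 89.3 and 89.6% of all genes were lower in the Vs libraries, and between 62.7 and 66.8% in the Vv libraries. By log2 fold change it was at rank 285 of the tested genes, with 1.84% above it. Among the 3269 tested genes whose mean level was within 1.5 times its own, it was at rank 71. Among the heme monooxygenases, the class to which P450 enzymes belong, it was at rank 5 of 71 tested genes by fold change. By level it was ranked together with all 190 others of that class, tested or not. That rank was 11, 11 and 13 in the Vs libraries against 34, 32 and 29 in the Vv libraries.

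**Figure D2:**
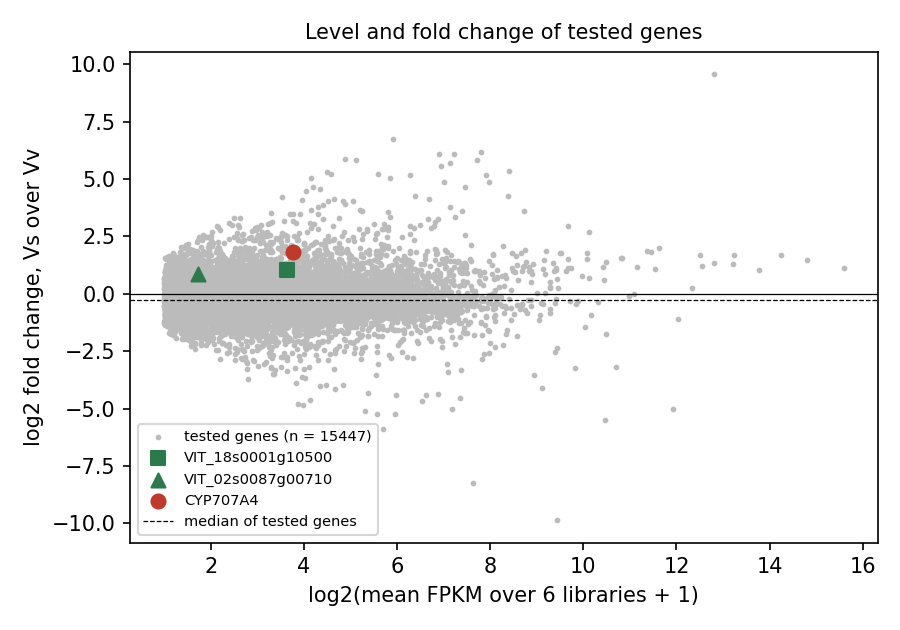
Log2 fold change of Vs over Vv against the log2 of mean FPKM + 1 for the 15447 tested genes (grey), with CYP707A4 in red and the other 2 tested CYP707A loci in green. The dashed line is the median of the tested genes, -0.25; CYP707A4 lies at 1.84 and the other loci at 1.02 and 0.89.

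The other CYP707A loci had higher means in Vs hybrids too, but none passed the test. VIT_18s0001g10500 (MSTRG.10068), annotated as an ABA 8'-hydroxylase, was at 15.2, 16.3 and 14.7 FPKM in the Vs libraries, against 10.3, 6.44 and 5.36 FPKM in those of Vv. Its groups did not overlap, and its log2 fold change was 1.02 (SE 0.27, limma adjusted p = 0.167), or 0.84 without Vv replicate 3 (adjusted p = 0.254). VIT_02s0087g00710 (MSTRG.13035), described as ABA 8' hydroxylase 2, was at 3.13, 5.31 and 1.499 FPKM in the Vs libraries, against 1.31, 1.98 and 0.503 FPKM in those of Vv. Its groups overlapped, with a log2 fold change of 0.89 (SE 0.42, limma adjusted p = 0.285). CYP707A2 (MSTRG.16798), whose Arabidopsis namesake acts in seeds, was at 2.77, 0.462 and 0 FPKM in the Vs libraries, against 0.375, 0.175 and 0.202 FPKM in those of Vv. It was below the minimum mean of 1 FPKM and was not tested. Of all tested genes, 0.557% passed an adjusted p under 0.05 (86 genes, 43 in each direction), and of the 2 other tested loci 0 did.

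In Vs libraries CYP707A4 was the member of the family with the highest level, and in Vv libraries VIT_18s0001g10500 was. The ratio of CYP707A4 to VIT_18s0001g10500 was 1.19, 1.34 and 1.41 in the Vs libraries and 0.517, 0.914 and 0.712 in the Vv libraries. Summed over the 4 loci, FPKM was 39.3, 44.0 and 37.1 in the Vs libraries and 17.2, 14.5 and 9.89 in the Vv libraries. CYP707A4 made up 46.3, 49.8 and 56.2% of that sum in the Vs libraries, against 30.8, 40.7 and 38.6% in the Vv libraries. Its share did not overlap between the groups, a description that follows in part from how the gene was chosen.

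The samples differ in photosynthesis genes, which mark leaf tissue, and most of these were higher in Vs, as CYP707A4 was. Within Vs the order of libraries differed: replicate 2 had the highest CYP707A4 level and the lowest marker sum. Within Vv the order was the same for both. Of 58 tested leaf markers 48 had a log2 fold change above 0, with a median of 0.97, against -0.25 over all tested genes. Without Vv replicate 3, 19 of the 58 were below 0 and the median was 0.36. Their sum ranged from 18475 to 27096 FPKM in the Vs libraries and from 4964 to 15800 FPKM in those of Vv. In each Vs library 6 of the 60 markers were at 0, and in each Vv library 5. Of the 58 markers 1 passed the test, where 0.557% of all tested genes did, the chlorophyll a-b binding protein gene VIT_10s0003g02900 (MSTRG.1533). It was listed at 0 in the Vs libraries and reached 658, 434 and 94.9 FPKM in those of Vv, against the direction of most of its list (log2 fold change -8.24, limma adjusted p = 0.011, and -9.06 without Vv replicate 3). It lost the call without Vs replicate 1 (0.0514), Vs replicate 2 (0.0711) or Vv replicate 2 (0.0854). For each 1000 FPKM of leaf markers, CYP707A4 had 0.866, 1.19 and 0.769 FPKM in the Vs libraries, against 0.352, 0.373 and 0.769 FPKM in those of Vv. On this ratio Vv replicate 3 equalled Vs replicate 3 to 3 digits, while the other Vv libraries stayed below all Vs libraries. The few markers of the other pooled tissues were mostly above 0 too. Both phloem markers tested were (2 of 2), with a median of 0.92, and 0.95 without Vv replicate 3. Of 4 genes listed as berry markers 3 were, with a median of 0.88, and 0.33 without Vv replicate 3. The 1 below 0, ATGRIP (MSTRG.14954, log2 fold change -0.48), was listed by a match of its name alone. It may not mark berry tissue, and both medians include it. The part of leaf, phloem or berry tissue in the level of CYP707A4 was not tested.

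**Figure D3:**
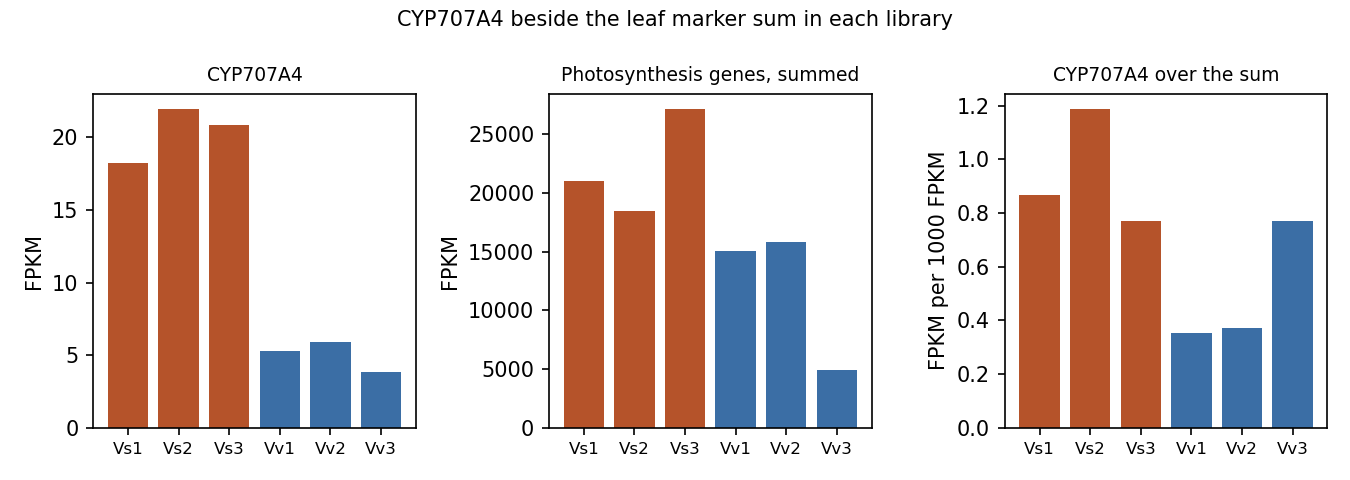
CYP707A4 (left), the sum of 60 photosynthesis genes (middle) and CYP707A4 for each 1000 FPKM of that sum (right) in each library, with Vs libraries left of Vv libraries. Vv replicate 3 has the lowest photosynthesis sum, 4964 FPKM, and its ratio of 0.769 equals that of Vs replicate 3.

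In ABA synthesis, 0 of 8 tested genes passed the limma test, where 0.557% of all tested genes did. An unadjusted p under 0.05 was reached by 0 of the 8, against 20.4% of all tested genes. With 8 genes, neither count shows a lack of change. Of the 8, 5 were above 0 and the median was 0.30, or 0.15 without Vv replicate 3. ABA1 (MSTRG.18370), the zeaxanthin epoxidase, was the most abundant of those found in every library, at 126, 150 and 210 FPKM in the Vs libraries, against 77.4, 102 and 12.9 FPKM in those of Vv. Its groups did not overlap, and the gap was widest at Vv replicate 3 (log2 fold change 1.72, limma adjusted p = 0.262). Without Vv replicate 3 the log2 fold change was 0.83 (adjusted p = 0.279). ABA4 (MSTRG.6075), needed in Arabidopsis for neoxanthin formation, was at 4.41, 8.42 and 5.19 FPKM in the Vs libraries, against 7.26, 9.63 and 28.1 FPKM in those of Vv, with overlap (log2 fold change -1.01, adjusted p = 0.305, and -0.46 without Vv replicate 3). VIT_02s0087g00910, annotated as an NCED, the rate-limiting dioxygenase, was at 223.9 FPKM in Vs replicate 2 and listed at 0 in the other 5 libraries.

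In the carotenoid pathway that leads to these precursors, 1 of 13 tested genes passed, where 0.557% of all tested genes did. Of the 13, 8 were below 0 with a median of -0.19, and without Vv replicate 3 there were 11 with a median of -0.40. LUT2 (MSTRG.2082), a lycopene epsilon-cyclase of the lutein branch, was at 3.39, 2.305 and 3.69 FPKM in the Vs libraries and listed at 0 in the Vv libraries (limma adjusted p = 0.028). A second locus of that name, MSTRG.2081, was at 7.21, 6.39 and 11.5 FPKM in the Vs libraries, against 8.98, 8.003 and 2.25 FPKM in those of Vv, and this pair of loci may share reads. MSTRG.2082 no longer passed when any 1 library was left out (adjusted p of 0.0704 without Vv replicate 3). CYP97A3 (MSTRG.14644), a carotenoid ring hydroxylase, was at 11.5, 10.8 and 8.82 FPKM in the Vs libraries, against 27.3, 25.2 and 22.2 FPKM in those of Vv. Its groups did not overlap, with Vs below Vv, as was so for 26.2% of all tested genes. Its log2 fold change of -1.19 did not pass (adjusted p = 0.095).

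**Figure D4:**
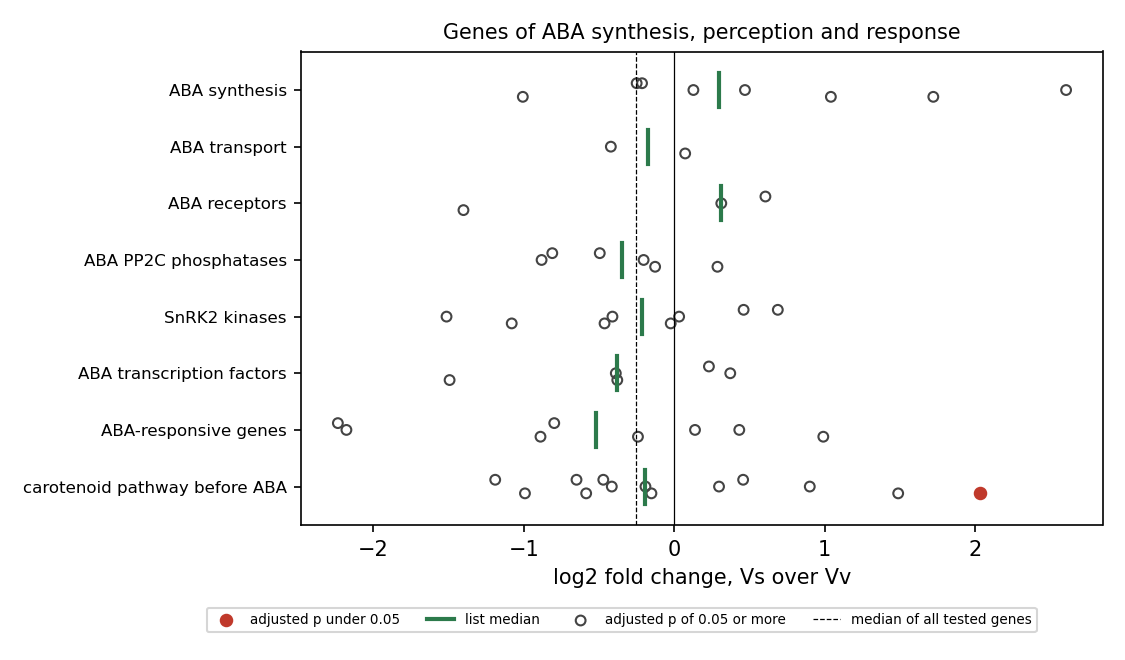
Log2 fold change of Vs over Vv for each tested gene of 7 ABA lists and of the carotenoid pathway. Circles are genes, the filled one passed an adjusted p under 0.05, the green bar is the median of a list and the dashed line the median of all tested genes, -0.25; only LUT2 is filled.

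Perception and signalling held 22 tested genes, of which 0 passed, where 0.557% of all tested genes did. Of the 22, 14 were below 0, with a median of -0.29 against -0.25 over all tested genes. Among 3 tested receptors, VIT_02s0012g01270 (MSTRG.12805) was at 3.61, 2.92 and 2.41 FPKM in the Vs libraries, against 6.18, 12.96 and 10.3 FPKM in those of Vv. Its log2 fold change was -1.40 (adjusted p = 0.141), while VIT_16s0050g02620 (MSTRG.8250) had 0.61 (adjusted p = 0.219), so the receptor loci did not share a direction. Of 6 PP2C genes 5 were below 0 with a median of -0.35, but 3 were after median-ratio scaling and 6 without Vv replicate 3. The most abundant, VIT_06s0004g05460 (MSTRG.16821), was at 31.2, 64.0 and 65.5 FPKM in the Vs libraries, against 53.9, 83.3 and 187 FPKM in those of Vv, with overlap. Its log2 fold change was -0.88, and -0.39 without Vv replicate 3. Of 8 SnRK2 kinases 5 were below 0. SNRK2-9 (MSTRG.18566) was at 3.07, 4.23 and 1.93 FPKM in the Vs libraries, against 8.19, 9.80 and 13.6 FPKM in those of Vv (log2 fold change -1.51, adjusted p = 0.130). The groups of SNRK2-9 did not overlap, with Vs below Vv, as was so for 26.2% of all tested genes. The factor ABF2 (MSTRG.10062) was at 13.1, 20.3 and 25.9 FPKM in the Vs libraries, against 21.2, 24.8 and 30.1 FPKM in those of Vv (adjusted p = 0.485).

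A list made for ABA response gave 0 calls among 8 tested genes, where 0.557% of all tested genes passed. Of the 8, 5 were below 0, with a median of -0.52. The list also holds KEG and CIPK15, so it is not a measure of ABA response alone. NAP (MSTRG.819), a senescence-linked NAC factor, was at 1.83, 1.996 and 2.24 FPKM in the Vs libraries, against 22.9, 5.44 and 15.6 FPKM in those of Vv (log2 fold change -2.18, adjusted p = 0.148). RD20 (MSTRG.15812), a caleosin induced by drought, was at 1.28, 9.51 and 1.12 FPKM in the Vs libraries, against 7.18, 6.44 and 86.0 FPKM in those of Vv, so its mean rests on Vv replicate 3. Its log2 fold change was -2.24 (adjusted p = 0.299), and -1.08 without that library. Over the 7 ABA lists, 0 of 40 genes passed, where 0.557% of all tested genes did. At that share, 0 calls among 40 genes do not show a lack of change. Of the 40, 23 were below 0, with a median of -0.21. At an unadjusted p under 0.05 there were 6 of the 40, against 20.4% of all tested genes, and 40 genes are too few to tell these shares apart. The median of the 40 lay near the -0.25 of all tested genes. Of 57 tested genes annotated to ABA response, 1 passed, where 0.557% of all tested genes did: VIT_18s0001g00360 (MSTRG.9484), also annotated to water deprivation and cold acclimation, was at 250, 998 and 725 FPKM in the Vs libraries, against 6.09, 13.5 and 24.5 FPKM in those of Vv (log2 fold change 5.36, adjusted p = 0.040). It lost the call without Vs replicate 2 (0.167), Vs replicate 3 (0.112), Vv replicate 1 (0.0924), Vv replicate 2 (0.162) or Vv replicate 3 (0.0725), and also with a pseudocount of 0.1 (0.0524) or no filter (0.0802). Of the 57 genes 70.2% were below 0, against 67.5% of all tested genes, and the median was -0.33. After median-ratio scaling 33 of the 57 were below 0 and the median was -0.06.

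Of the 70 other tested heme monooxygenases 2 passed, both lower in Vs, where 0.278% of all tested genes were called lower (and 0.278% higher). VIT_02s0012g02820 (MSTRG.12881) was at 0, 0.003 and 0.045 FPKM in the Vs libraries, against 1.99, 2.77 and 2.46 FPKM in those of Vv (adjusted p = 0.031). VIT_07s0129g00730 (MSTRG.18306), annotated to secondary metabolism, was at 1.14, 0.617 and 0.708 FPKM in the Vs libraries, against 3.84, 4.80 and 5.06 FPKM in those of Vv (adjusted p = 0.048). Both lost the call whichever library was left out, with adjusted p of 0.0645 to 0.161 for MSTRG.12881 and 0.066 to 0.210 for MSTRG.18306. MSTRG.18306 also lost it with median-ratio scaling (0.0874), quantile normalization (0.0828), and the trend (0.0644), robust (0.0512) or both options of limma's eBayes (0.0672), and MSTRG.12881 with the trend option (0.081) or both (0.0904). Enzymes that inactivate other hormones gave 0 calls among 10 tested genes, where 0.557% of all tested genes passed. Of the 10, 5 lay on each side of 0, with a median of 0.05.

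Over the 6 libraries, 80 tested genes had a Pearson correlation above 0.95 with CYP707A4 in log2(FPKM + 1). The 6 points form a group of Vs and a group of Vv libraries, so the value largely follows the group difference, and genes of a library share its depth and tissue mix. The closest were MSTRG.20035 (VIT_09s0002g00690, r = 0.995), MSTRG.14583 (VIT_04s0079g00690, a glutathione S-transferase, r = 0.992), MSTRG.4406 (a merged group of VIT_13s0019 loci, r = 0.990), MSTRG.16873 (VIT_06s0004g06010, annotated to RNA binding, r = 0.987) and MSTRG.15432 (VIT_05s0020g01880, r = 0.985). The glutathione S-transferase was at 315, 486 and 646 FPKM in the Vs libraries, against 12.8, 21.9 and 11.3 FPKM in those of Vv. By contrast VIT_09s0002g00690 was at 27.3, 28.6 and 26.2 FPKM in the Vs libraries, against 13.7, 15.3 and 11.9 FPKM in those of Vv, a smaller ratio with the same order of groups.

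The degradome library, a pool that reads cut ends of transcripts, listed 8858 pairs of a miRNA and a transcript, of which 1559 had reads at the predicted site. No pair named a transcript of the 4 CYP707A loci (0 of 8858). Of 11 pairs on genes of the ABA lists and 6 on carotenoid genes, 0 had reads.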

How the data were processed

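RNA-seq libraries of 3 Vs hybrids and 3 Vv plants were analysed. The authors mapped reads with HISAT and deposited FPKM per gene from StringTie; which build of the V. vinifera genome they used was not given in the sources used here. The degradome table holds raw read counts as deposited, and miRNA values were not used here. Genes averaging 1 FPKM or more across the 6 libraries were compared with limma 3.58.1 (lmFit and eBayes, default settings, R 4.3.3) on log2(FPKM + 1), and p-values were adjusted by Benjamini-Hochberg over all 15447 tested genes. A fold change on this scale understates that of low genes. The trend option, the robust option and both together in eBayes were also run, after the data were seen. For a time the trend option was the main setting, because its count matched an earlier analysis of these data; the default was then restored, with all counts known, because the design named no option. Named genes were CYP707A4, the other CYP707A loci, and, in each list, every gene past the threshold, the most abundant and up to 3 of smallest p, plus the 5 genes most correlated with CYP707A4; others are named for context after their values were seen. The members and lists were chosen with earlier results of these data known. Alternatives were a pseudocount of 0.1, no filter, a minimum of 5 FPKM, other scalings, a replicate block and each library left out.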

Additional observations from a re-analysis of the deposited data

How the results depend on the processing

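CYP707A4 kept its direction in every alternative, but it was chosen for this difference in the same libraries, so this lends no support. Its log2 fold change was 2.12 after median-ratio scaling, 2.06 after quantile normalization and 1.69 to 1.95 with 1 library left out. Its rank was 536 with a pseudocount of 0.1. The count of 86 called genes depends on the variance model: eBayes gave 68 with the trend option, 79 with the robust option and 64 with both. These 3 fits and a rescaling to a common sum per library (109 genes) were added after seeing the data. The count was 57 with a minimum of 5 FPKM and 20 to 79 with 1 library left out (24 when Vs replicate 2 was dropped, 40 for Vv replicate 1, 20 for Vv replicate 2 and 53 for Vv replicate 3). Higher against lower calls were 43 and 43, but 50 and 21 with median-ratio scaling, 44 and 24 with quantile normalization and 44 and 65 after rescaling. They were 62 and 17 when Vs replicate 1 was dropped, 16 and 8 for Vs replicate 2, 47 and 20 for Vs replicate 3, 21 and 19 for Vv replicate 1, 8 and 12 for Vv replicate 2, and 25 and 28 for Vv replicate 3. The 1 call within the 7 ABA lists and the carotenoid list, LUT2, fell to 0 with the trend option, with both options, and with any 1 library left out (0 to 0). With a minimum of 5 FPKM the count was 0 too, but LUT2 lay under that minimum and was not tested there. Replicate numbers were not taken to pair the plants. Deviations from the group means correlated at 0.17, -0.05 and 0.04 between same-numbered libraries. Between other-numbered libraries they correlated at -0.122 to 0.115. With 3 libraries per group these values cannot settle whether plants were paired. With the replicate block 0 genes passed, also among these lists. The other CYP707A loci stayed above 0 and past no threshold (adjusted p of 0.120 to 0.347 for VIT_18s0001g10500 and 0.229 to 0.509 for VIT_02s0087g00710). Genes near 0 changed sign. ABCG25, at 0.073, was -0.10 after rescaling and -0.0461 to 0.236 with 1 library left out. CPD, at -0.179, was 0.128 with median-ratio scaling, 0.0382 with quantile normalization and -0.371 to 0.196 with 1 library left out. VIT_08s0007g08300, at -0.052, was 0.253 with median-ratio scaling, 0.168 with quantile normalization and -0.142 to 0.0837 with 1 library left out. VIT_02s0087g00910, at 2.604, ranged from 0 to 3.91 with 1 library left out. The cause was not tested. Depth per library was not used here, and there were 3 plants per group.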
